A study of Mus musculus with 22 samples.

Results

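Macrophages grown from the bone marrow of C57/bl6 mice in L929 cell-conditioned medium (BMDM) were polarized with lipopolysaccharide (LPS, 10 ng/ml) for 48 h, either alone (LPS, 5 arrays, replicate numbers 2 to 6) or together with 1 mM β-hydroxy-β-methylbutyrate (HMB+LPS, 5 arrays, numbers 2 to 6). These 10 arrays, of 22 in the series, are compared here to determine whether HMB altered the transcriptome of M1-like macrophages. The remaining arrays held M0 macrophages without LPS, 6 untreated (Ctrl) and 6 with HMB alone. All were Clariom S arrays hybridized with biotin-labelled cDNA, and values are log2 signals, so that each unit is a doubling. The 10 arrays fell into a strong and a weak response to LPS, and the comparison was made within these levels. LPS 2, 4 and 5 and HMB+LPS 2, 3 and 4 formed the strong level (6 arrays), and LPS 3 and 6 and HMB+LPS 5 and 6 formed the weak level (4 arrays). The levels are not groups of the study: they were set from the measured values of these same arrays, so every p-value below is conditional on that split. Whether arrays of a group came from separate mice or cultures is not given, so the p-values cover the spread among these arrays alone and that spread may be technical.

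LPS is recognized by Toll-like receptor 4, whose signalling through NF-κB and interferon regulatory factors turns on cytokines, chemokines and antimicrobial genes and moves macrophages to an M1-like state. Nos2, the inducible nitric oxide synthase, and Arg1, the arginase often used as an M2-like marker, compete for arginine. HMB is a metabolite of leucine that is taken as a dietary supplement.

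The response level was plain in the genes that LPS is known for. Nos2 was at 16.18, 16.29 and 16.25 on the strong LPS arrays and at 15.88, 15.89 and 16.60 on the strong HMB+LPS arrays. On the weak arrays it was at 5.64 and 5.74 on the LPS arrays and at 9.85 and 9.78 on the HMB+LPS arrays, while the Ctrl arrays ran from 3.82 to 5.75. Nos2 was therefore within the Ctrl range on 2 arrays labelled LPS, and midway on both weak HMB+LPS arrays. Il6, a cytokine of the acute phase response, was at 11.69, 14.33 and 12.73 on the LPS arrays and at 12.50, 12.56 and 15.09 with HMB+LPS in the strong level. In the weak level it was at 3.59 and 4.10 on the LPS arrays and at 3.43 and 3.44 on the HMB+LPS arrays, close to the Ctrl range of 2.47 to 3.26. Unlike Nos2, Il6 was at the bottom on all 4 weak arrays, whichever the group.

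Lcn2, which binds iron siderophores, was far above Ctrl on the weak arrays too. It was at 15.21 and 15.24 on the weak LPS arrays and at 17.37 and 17.54 on the weak HMB+LPS arrays, against 3.44 to 8.07 in Ctrl and 17.39 to 18.20 in the strong level. Mrc1 and Mki67 lay nearer to Ctrl on the weak arrays. Mrc1, the mannose receptor and an M2-like marker, was between 9.87 and 10.91 on the 4 weak arrays and between 4.28 and 7.08 on the 6 strong ones (Ctrl 12.29 to 13.83). The proliferation marker Mki67 was between 13.48 and 14.72 on the weak arrays and between 8.25 and 10.31 on the strong ones (Ctrl 12.17 to 15.56). This did not hold for every gene. Ctsk, an osteoclast marker, was at 10.61 and 10.60 on the weak LPS arrays. It was at 6.28 to 8.35 on the strong LPS arrays and 5.24 to 7.69 in Ctrl. Over 20 measured M1-like markers, the mean log2 level was 8.30 and 8.32 on the weak LPS arrays, 9.54 and 9.61 on the weak HMB+LPS arrays, and from 11.66 to 12.60 in the strong level, so the arrays nearest to the split from either side were at 9.61 and 11.66. In Ctrl this mean ran from 6.63 to 7.26. All these values are a description of what set the levels. A first principal component with 52.9% of the variance placed the weak arrays between 77.6 and 99 and the strong ones between −89.1 and −30.1.

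**Figure D1:**
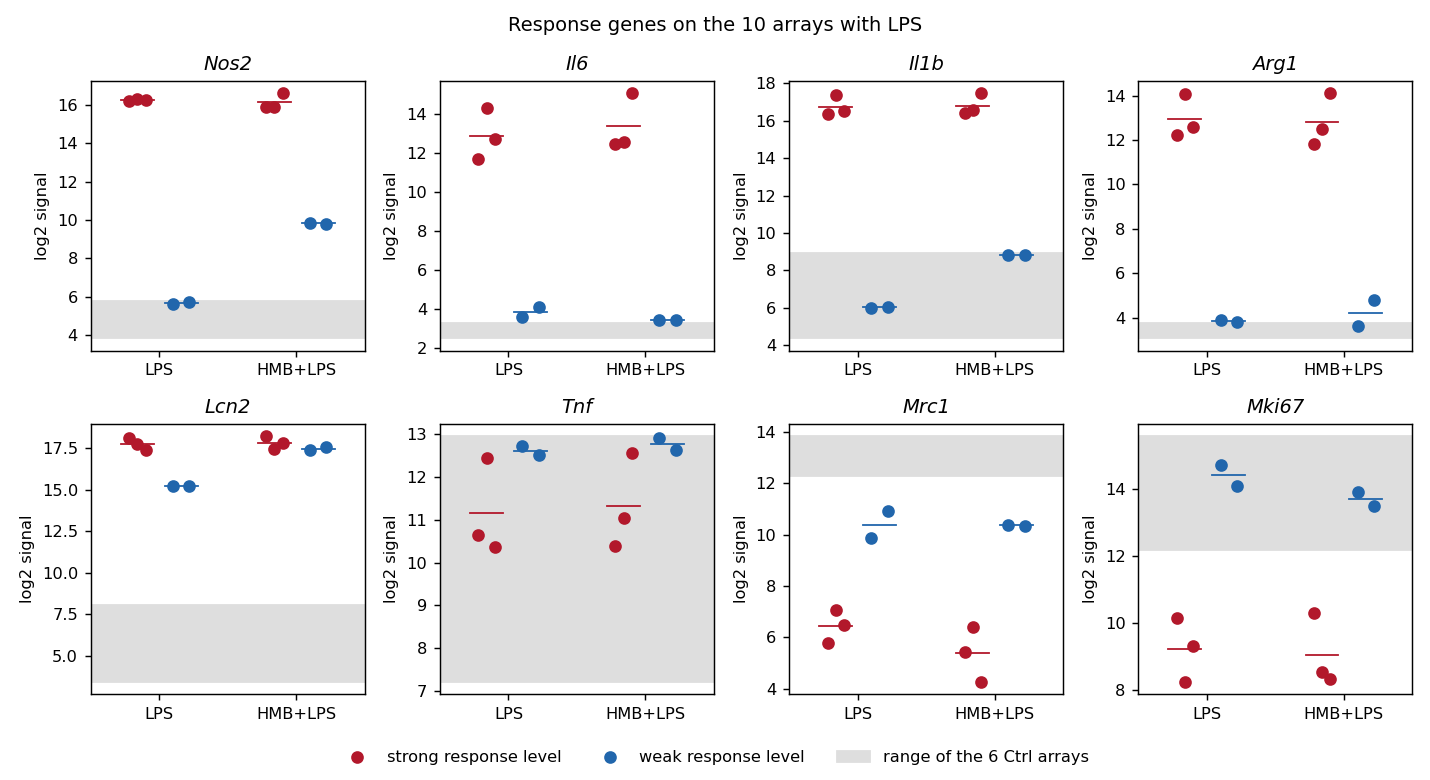
Log2 signal of 8 response genes on each of the 10 arrays with LPS, by group (x axis), with strong-level arrays in red, weak-level arrays in blue, group means within a level as bars, and the range of the 6 Ctrl arrays shaded. Nos2, Il1b and Lcn2 were higher with HMB+LPS than with LPS on the weak arrays and overlapped on the strong ones, Il6 was near the Ctrl range on all 4 weak arrays, and Mrc1 and Mki67 were higher on weak than on strong arrays.

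Of the 17 measured macrophage markers, 12 were above the 95th percentile of the negative controls on 6 or more of the 10 arrays, and their mean level was between 14.81 and 14.98 on weak arrays and between 13.82 and 14.33 on strong ones. Adgre1, which encodes F4/80, was between 16.18 and 17.42, so the macrophage label held on all 10 arrays. Signal over background moved with the level: the positive controls stood above the negative ones by 4.86 to 5.03 log2 units on weak arrays and by 3.65 to 4.40 on strong ones. Within a level it was alike in both groups, at 3.65 to 4.40 with LPS and 3.82 to 4.28 with HMB+LPS in the strong level, and at 4.95 and 5.03 with LPS and 5.00 and 4.86 with HMB+LPS in the weak level. The part of signal over background in the differences between levels was not tested. The weak LPS arrays are numbers 3 and 6 and the weak HMB+LPS arrays are numbers 5 and 6, so arrays LPS 3 and HMB+LPS 5 have no weak partner of their number. Only number 6 is weak in both groups, and the difference between its 2 arrays was 4.04 for Nos2, 3.45 for F10 and 2.65 for Saa3, an acute phase protein. These are single values with no replicate. Whether a number marks a culture is not given.

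Across both levels, no gene passed the test for a difference with HMB. With the response level as a block, limma called 0 of 22206 probe sets for HMB+LPS minus LPS (adjusted p under 0.05, smallest adjusted p = 0.717), and 1036 had an unadjusted p under 0.05 (4.67%), 529 higher and 507 lower, where 1110.3 would be reached if no probe set differed. Without the block 0 were called and 515 had such a p (2.32%). The middle 50% of differences lay between −0.21 and 0.19 log2 units, and the median standard error of a difference was 0.28.

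The genes with the smallest p were near background on many arrays, and none passed. Fam13a was at 6.24, 7.20, 6.90, 6.56 and 7.58 with LPS 2 to 6, and the HMB+LPS arrays ran from 7.96 to 8.97 with a median of 8.20, a difference of 1.40 ± 0.23 (SE, n = 5 and 5). The groups did not overlap, and the difference was 1.53 in the strong and 1.20 in the weak level. Ctla2a, a cathepsin inhibitor, overlapped between groups over the 10 arrays but not within a level, and the difference was 1.25 ± 0.21, at 1.13 in the strong and 1.42 in the weak level. Abhd6, a monoacylglycerol lipase, differed by 1.26 ± 0.28 and Tagln, a smooth muscle actin-binding protein, by 1.37 ± 0.31. Dnase1l3, a DNase of macrophages and dendritic cells, Rxfp1, Esyt3, 1110017D15Rik, Btg4 and Ndrg4 were higher by 1.02 to 1.53, on arrays where they lay between 2.54 and 7.90.

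In the other direction, Slco2b1, an organic anion transporter, was at 5.75, 4.82 and 5.41 on the LPS arrays and at 3.90, 3.30 and 3.79 with HMB+LPS in the strong level, and at 7.19 and 7.47 against 6.15 and 5.58 in the weak level. Within each level both groups were apart, with a difference of −1.58 ± 0.24 over both. Nrm, a nuclear envelope protein, was at −1.26 ± 0.23, and Gmnn, geminin, an inhibitor of DNA replication licensing, at −1.03 ± 0.20. The heavy chain gene Myh4, Sugct, Ccdc69, the collagenase Mmp1a, the platelet glycoprotein Gp9, Scgb2b19 and the proteasome assembly factor Psmg3 were lower by values from −0.96 for Gp9 to −1.36 for Ccdc69. All of these are values short of the threshold.

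For the genes fixed by name, exact permutation tests within levels (two-sided, 120 assignments, smallest possible p = 0.0167) gave no adjusted p under 0.468 over 8 genes. The differences were 1.58 for Nos2 (p = 0.233), 1.16 for the cytokine Il1b (p = 0.117), 0.93 for Lcn2 (p = 0.117), 0.17 for the cytokine Tnf (p = 0.55), 0.12 for Il6 (p = 0.883), 0.05 for Arg1 (p = 0.917), −0.40 for Mki67 (p = 0.467) and −0.64 for Mrc1 (p = 0.25), all exact permutation p-values. The larger of these averaged 2 unlike levels: Nos2 was at −0.12 in the strong and 4.12 in the weak level, Il1b at 0.06 and 2.80, and Lcn2 at 0.07 and 2.23.

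In strongly responding macrophages no gene passed for HMB either. Among 3 against 3 arrays, limma called 0 probe sets and 919 had an unadjusted p under 0.05 (4.14%), fewer than the 1110.3 that no difference would give. The intervals show what this could have missed. They do not use the replicate numbers, although the arrays of numbers 2 and 4 deviated together between groups. The 95% interval of the difference was −0.70 to 0.46 for Nos2, −0.57 to 0.70 for Lcn2, −0.54 to 0.99 for the neutrophil collagenase Mmp8 and −0.62 to 0.38 for the acute phase protein Saa3. For Il6 it was wide, −1.24 to 2.17, and for Arg1 it was −1.60 to 1.27. Saa3 was between 18.76 and 19.13 on all 6 strong arrays, the brightest of the genes named here.

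In weakly responding macrophages, Nos2 and F10, coagulation factor X, were the leading calls for HMB+LPS minus LPS, with rises of 4.12 and 3.67. limma called 27 probe sets (0.122% of those tested), 26 higher (0.117%) and 1 lower (0.0045%), and 2028 had an unadjusted p under 0.05 (9.13%). The 26 rises were between 1.85 and 5.84 log2 units. This count rested on few arrays and on a spread shared with the strong level. In the 4 weak arrays alone, 0 passed (smallest adjusted p = 0.105, with 4197 at an unadjusted p under 0.05), and the count was 0 without LPS 3 or HMB+LPS 6, 2 without LPS 6, 3 without HMB+LPS 5, 7 without HMB+LPS 3, 13 without LPS 4, 15 without HMB+LPS 4 and 17 without LPS 2 or LPS 5. Since the weak arrays were picked by how little such genes had moved, these p-values describe the arrays and carry no independent support. The 95th percentile of the negative controls was 9.9 and 9.92 on the weak LPS arrays and 10.08 and 10.23 on the weak HMB+LPS arrays. Nos2, Arg2, U90926, Mmp2, Tnfrsf9 and Chac1 lay below it on all 4 weak arrays. F10 was just above it on the HMB+LPS arrays only, at 10.16 and 10.33. Saa3, Sod2 and Mmp8 were above it on all 4.

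Arginine and oxidant genes were among the 27. Nos2 rose by 4.12 ± 0.32 (SE, n = 2 and 2, adjusted p = 0.00264). Arg2, the mitochondrial arginase, was at 5.04 and 4.91 on the LPS arrays and at 7.79 and 8.85 on the HMB+LPS arrays, a rise of 3.35 ± 0.36 (adjusted p = 0.0111). Sod2, the mitochondrial superoxide dismutase and an NF-κB target, went from 13.76 and 13.71 to 15.85 and 15.88, a rise of 2.13 ± 0.30 (adjusted p = 0.0413). On the strong arrays these 3 genes were level between groups, with differences of −0.12, 0.11 and 0.13. Arg1, in contrast, was at 3.87 and 3.78 on the LPS arrays and at 3.61 and 4.80 on the HMB+LPS arrays in the weak level, overlapping and near its Ctrl range of 3.06 to 3.75, while the 6 strong arrays had it between 11.80 and 14.10.

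Secreted proteins among the 27, put together here after the calls were known, included the following. Saa3 was at 14.92 and 14.90 on the LPS arrays and at 17.46 and 17.56 on the HMB+LPS arrays (2.60 ± 0.27, adjusted p = 0.0101). Mmp8 was at 10.19 and 10.59 against 14.45 and 14.82 (4.24 ± 0.42, adjusted p = 0.00807), and Cfb, complement factor B, at 8.80 and 8.37 against 12.10 and 11.93 (3.43 ± 0.49, adjusted p = 0.0413). F10 was at 6.27 and 6.88 against 10.16 and 10.33, next to the 10.49 to 10.67 of the strong arrays (3.67 ± 0.30, adjusted p = 0.00264). F10 had thus reached nearly its strong level on the weak HMB+LPS arrays, whereas Nos2 and Mmp8 had not. Wfdc17, a whey acidic protein family member, rose by 1.88. Outside the secreted proteins, Ptgs2, the inducible prostaglandin synthase, rose by 2.74 ± 0.39, from 10.45 and 9.76 to 12.80 and 12.88.

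Of 28 antigen presentation and interferon-γ genes, H2-Ab1, an MHC class II β chain, was the only one called in the weak level (2.70 ± 0.40). Of the 28, 5 were higher and 1 lower at an unadjusted p under 0.05 (against 4.34% and 4.8% of all probe sets), and the median was 0.23. Other surface molecules were called too. Tnfrsf9, which encodes 4-1BB, rose by 2.96 ± 0.34, Ly6i by 3.77 ± 0.38, Bst1, an ADP-ribosyl cyclase related to CD38, by 2.35 ± 0.30, and the signalling lymphocyte receptor Slamf6 by 2.78 ± 0.41. H2-Ab1 was at 8.58 and 9.08 on the LPS arrays and at 11.45 and 11.62 on the HMB+LPS arrays, below the 13.06 to 14.25 of the strong arrays. H2-Aa, the class II α chain, was at 8.18 and 8.62 against 11.23 and 10.95, a difference of 2.69 that did not pass (adjusted p = 0.141). U90926, a transcript induced by LPS in mouse macrophages, rose the most, from 2.68 and 3.31 to 8.53 and 9.14 (5.84 ± 0.57, adjusted p = 0.00807). AW112010, another LPS-induced transcript of mouse, rose by 2.39, and the unnamed probe set TC0200005112.mm.2 by 3.73.

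Of the 27, 4 were lower on the strong LPS arrays than in Ctrl 1 to 4, of which 2, Mmp2 and Chac1, were called lower. Mmp2, the gelatinase A, was at 4.28 and 5.14 on the LPS arrays and at 9.19 and 9.06 on the HMB+LPS arrays (4.42 ± 0.53, adjusted p = 0.0199), although in the strong level LPS arrays lay 2.45 below Ctrl 1 to 4. Mmp2 was the only one of the 27 with an unadjusted p under 0.05 in the strong level (difference 0.98). Cst7, a cystatin that inhibits cathepsins, was at 10.20 and 10.16 against 13.82 and 13.89, above the 7.18 to 8.99 of all strong arrays, and Klra17, a Ly49-family receptor of mouse, was at 7.08 and 6.34 against 10.07 and 10.41, above the 4.77 to 6.10 of all strong arrays. Chac1, a glutathione-degrading enzyme and target of the stress factor ATF4, was the 1 gene that fell, from 7.74 and 8.07 to 4.80 and 4.86 (−3.07 ± 0.41, adjusted p = 0.0382). The other genes called in the weak level were higher on the strong LPS arrays than in Ctrl 1 to 4, though not all by a called amount: Bpifc, which rose by 2.91 in the weak level, and the vesicle tethering subunit Trappc6a, by 1.85, were only 0.39 and 0.68 above Ctrl and not called there. Susd2 rose by 2.52, the glycoprotein Emb, embigin, by 2.41, the lectin Cd302 by 2.14 and the cortisone-reducing enzyme Hsd11b1 by 2.82 in the weak level, and on the strong LPS arrays they were above Ctrl by 5.55, 1.17, 1.73 and 2.23.

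**Figure D2:**
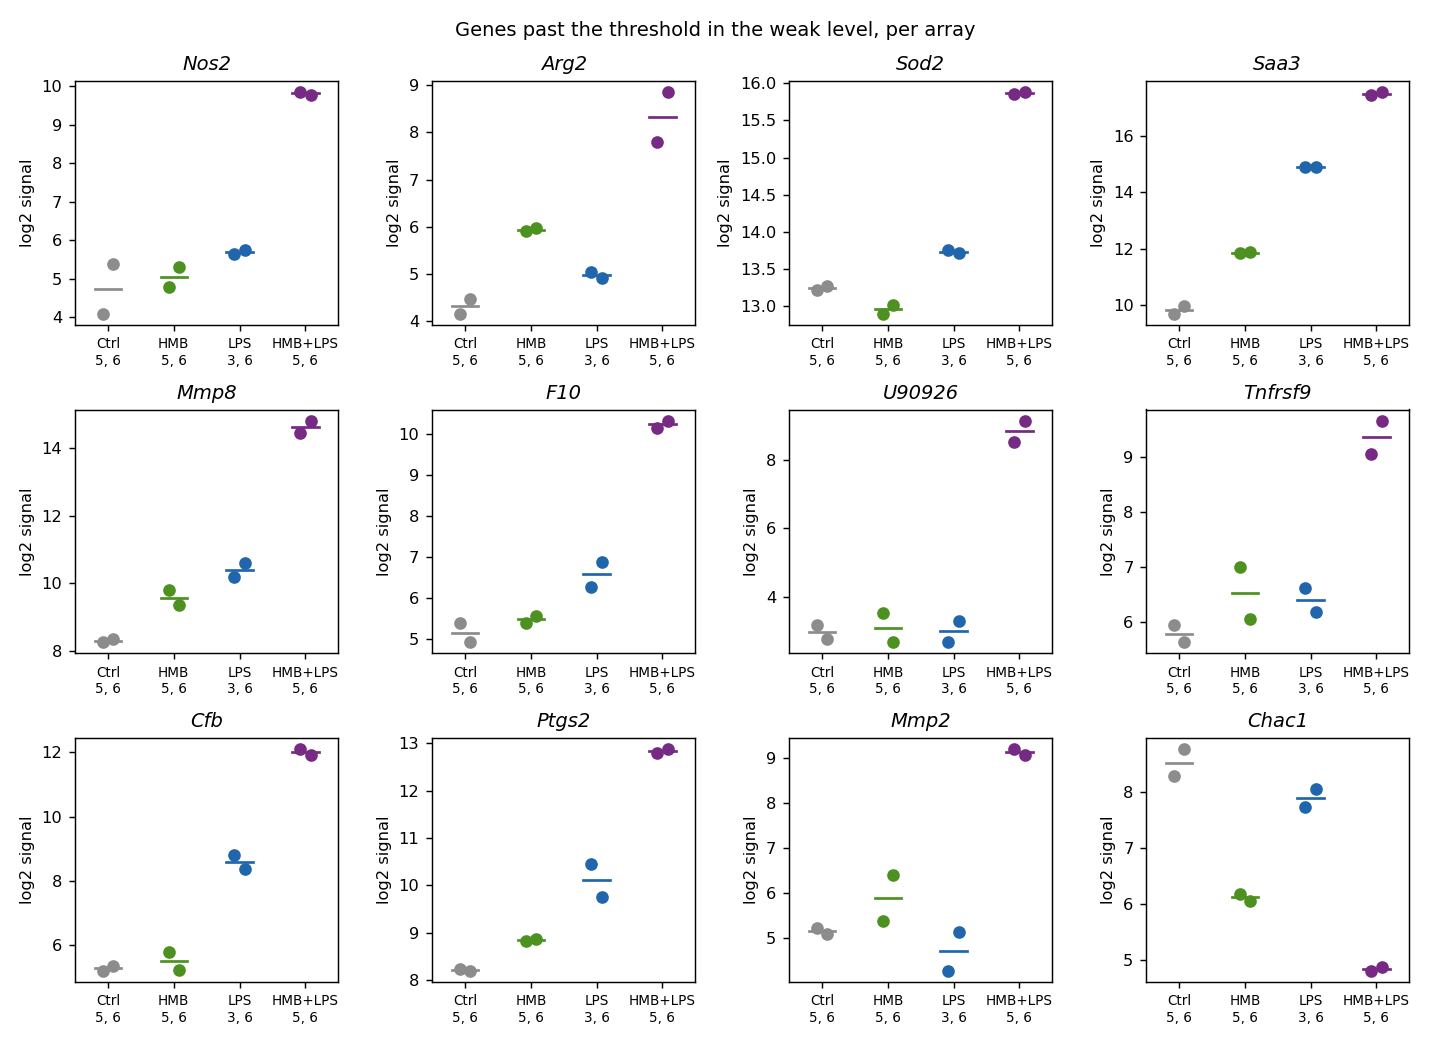
Log2 signal of 12 of the 27 called probe sets on single arrays: Ctrl and HMB arrays of numbers 5 and 6 (grey, green), the weak LPS arrays (blue) and the weak HMB+LPS arrays (purple), with means as bars and a y axis of its own for each gene. HMB+LPS was apart from LPS in each panel, higher for 11 genes and lower for Chac1, which was also lower with HMB than in Ctrl (6.18 and 6.05 against 8.29 and 8.78).

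Promoters are shown for genes among the 27 that hold a site letter by letter for a factor known to act on stress or acute phase genes. RefSeq promoter windows (GRCm38.p6, 250 bases before to 50 after the start) were matched for 18 of the 27. The amino acid response element TGATGCAA (either strand, 0.89% of 32851 windows) occurred in 1 of these 18, Chac1. The C/EBP motif TTGCNCAA (2.94% of windows) occurred in 2, Ptgs2 and Mmp8, and capitals mark these matches. The AP-1 site TGANTCA (7.81% of windows) occurred in 3 others. A match is a description of the letters and not a measured site.
Chac1, chr2:119350992-119351291, + strand: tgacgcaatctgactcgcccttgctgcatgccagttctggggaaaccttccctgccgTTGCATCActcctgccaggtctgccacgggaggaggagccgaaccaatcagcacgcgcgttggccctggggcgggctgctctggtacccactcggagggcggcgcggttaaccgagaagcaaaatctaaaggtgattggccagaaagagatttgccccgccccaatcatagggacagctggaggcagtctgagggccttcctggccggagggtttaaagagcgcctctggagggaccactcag
Ptgs2, chr1:150099781-150100080, + strand: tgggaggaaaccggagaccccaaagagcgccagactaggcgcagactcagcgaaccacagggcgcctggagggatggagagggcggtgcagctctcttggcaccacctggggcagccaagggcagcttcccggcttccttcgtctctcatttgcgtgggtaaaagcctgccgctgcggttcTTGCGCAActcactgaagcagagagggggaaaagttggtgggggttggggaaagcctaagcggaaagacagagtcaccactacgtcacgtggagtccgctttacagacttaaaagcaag
Mmp8, chr9:7558179-7558478, + strand: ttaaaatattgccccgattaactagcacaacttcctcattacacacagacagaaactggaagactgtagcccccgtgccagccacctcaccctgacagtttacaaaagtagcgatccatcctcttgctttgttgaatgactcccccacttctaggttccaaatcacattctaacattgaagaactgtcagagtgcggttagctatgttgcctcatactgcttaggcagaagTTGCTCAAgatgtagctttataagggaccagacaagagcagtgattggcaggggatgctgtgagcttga
In Chac1 the match lay 193 to 186 bases before the start, in Ptgs2 69 to 62 and in Mmp8 19 to 12.

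The test of the difference between levels called 2 probe sets (0.00901% of those tested), Nos2 and F10. The weak-level difference exceeded the strong-level one by 4.24 for Nos2 and 3.72 for F10 (limma interaction, adjusted p = 0.0245 each), and 1755 probe sets had an unadjusted p under 0.05 (7.90%). U90926, Saa3 and Mmp8 came next, at an adjusted p of 0.0920 each. Both calls ended without any 1 of 9 arrays, and without HMB+LPS 4 only 1 of the 2 was kept. Nos2 is among the genes that define the levels. F10 was apart between them too, at 6.27 and 6.88 on the weak and 10.49 to 10.67 on the strong LPS arrays. Both values are therefore a description. For the other 25 called probe sets no difference between levels was called. In the strong level the differences of the 27 ran from −0.40 to 0.98.

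**Figure D3:**
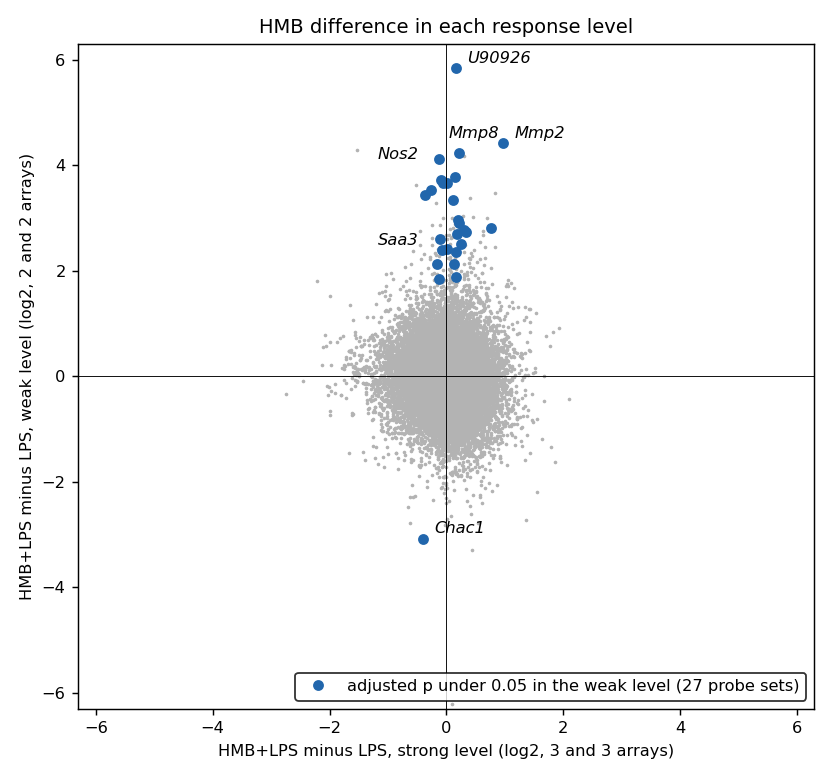
Difference HMB+LPS minus LPS (log2) of each of the 22206 probe sets in the strong level (x axis, 3 and 3 arrays) and in the weak level (y axis, 2 and 2 arrays), with the 27 probe sets called in the weak level in blue. The called ones spread from 1.85 to 5.84 (and to −3.07 for Chac1) on the y axis and from −0.40 to 0.98 on the x axis.

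The weak-level differences were then set along the LPS response in the strong level, LPS 2, 4 and 5 minus Ctrl 1 to 4 (3367 probe sets called, 15.2% of those tested, 1360 or 6.12% higher and 2007 or 9.04% lower). The levels were split by how far genes of this response moved, so these values are a description and no independent test. Ctrl 5 and 6 were left out because numbers 5 and 6 stood apart among arrays without LPS. Of the 100 probe sets that LPS raised most (by at least 4.25 log2 units), 92 were higher with HMB+LPS than with LPS in the weak level, with a median of 1.61. Of the 500 raised most, 80.2% were higher, with a median of 0.58. Among the 100 that LPS lowered most, 25 were higher and the median was −0.56. Over all probe sets 48.4% were higher and the median was −0.02. Across the 22206 probe sets Pearson's r was 0.27 and Spearman's rank correlation 0.18, a description over probe sets of the same arrays. Of the 27 called, 21 were also called higher in the strong LPS arrays than in Ctrl 1 to 4 and 2 were called lower. In 14 of the 27 both weak HMB+LPS arrays lay below all 6 strong arrays. The share of all probe sets with this last pattern was not counted, and the levels were split by values of this kind, so it is a description.

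**Figure D4:**
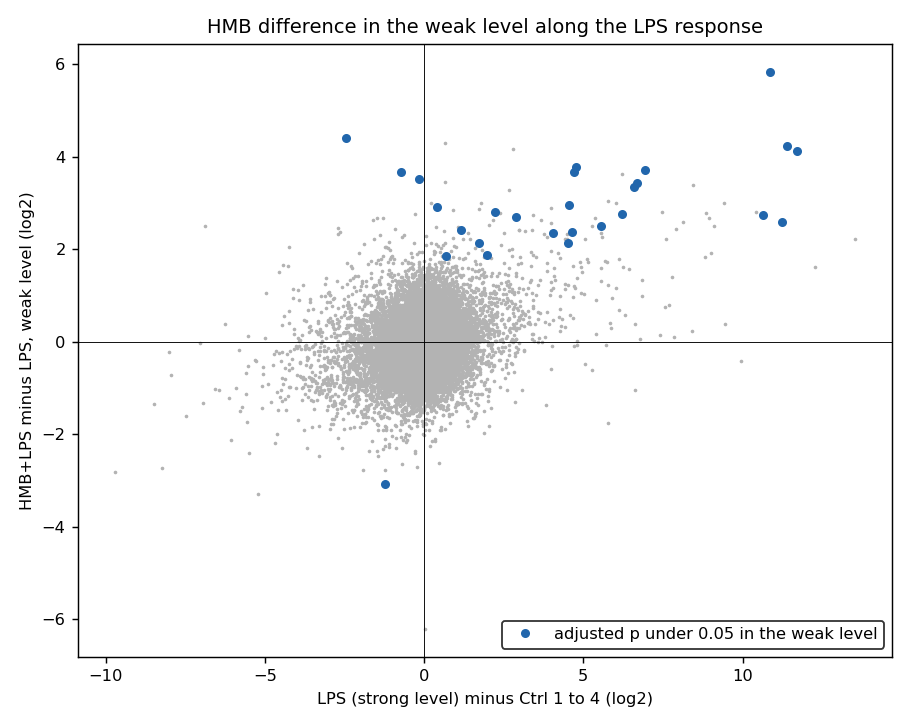
Each of the 22206 probe sets (points) by LPS minus Ctrl in the strong level (x axis, log2, LPS 2, 4 and 5 against Ctrl 1 to 4) and HMB+LPS minus LPS in the weak level (y axis, log2). Probe sets far to the right lie mostly above 0 on the y axis (92 of the 100 raised most), and the called ones in blue include several near or below 0 on the x axis, such as Mmp2 at −2.45.

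The weak-level difference did not reach all genes of the LPS response. Socs3, a brake on cytokine signalling, was at 4.80 and 4.30 on the LPS arrays and at 7.43 and 7.66 on the HMB+LPS arrays, and Il1b at 5.99 and 6.05 against 8.80 and 8.84, so these were apart but short of the threshold (adjusted p = 0.186 and 0.0614). Il6 (−0.41), Arg1 (0.38) and Tnf (0.16) were within 0.5 log2 units of 0, with standard errors of 0.94, 0.79 and 0.76 that do not exclude larger differences. Tnf was lower on most strong arrays than on the weak ones, at 10.37 to 12.56 against 12.50 to 12.91, with only HMB+LPS 4 reaching into the weak range. Without LPS, Tnf was at 12.85 and 12.94 on Ctrl 5 and 6 and at 13.08 and 13.17 on HMB 5 and 6. Its Ctrl range was 7.22 to 12.94, so no weak array lay above it. Slc7a11, the cystine transporter subunit that LPS arrays of the strong level had 7.41 above Ctrl 1 to 4, was at 14.96 and 15.19 against 15.04 and 15.39 in the weak level. Ctrl 5 and 6 were as high without LPS, at 15.01 and 14.58, so its distance from Ctrl depends on which Ctrl arrays are taken.

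Gene lists were read by their counts and medians. The levels were split by how far genes of the LPS response moved. For lists of such genes, as the M1-like markers and NF-κB genes, the values are therefore a description and no independent test. Of 20 measured M1-like markers, 3 rose in the weak level (Nos2, Ptgs2 and Cfb), 9 were higher and 1 lower at an unadjusted p under 0.05 (against 4.34% and 4.80% of all probe sets), and their median was 0.81, against 0.15 in the strong level and −0.02 over all probe sets in the weak level. The interferon-inducible chemokine Cxcl9 had the largest value of the list, 4.18 ± 0.81 (adjusted p = 0.134), at 4.29 and 4.78 against 8.53 and 8.90. Of 32 NF-κB genes, 30 were above 0 in the weak level, 2 rose (Ptgs2 and Sod2), and the median was 0.71. The signalling adaptor Traf1 differed by 1.59 there, short of the threshold. Of 37 inflammatory cytokines and chemokines, none passed, 23 were above 0 and the median was 0.21. At an unadjusted p under 0.05, 11 of them were higher and 0 lower (against 4.34% and 4.80% of all probe sets). Il1rn, the IL-1 receptor antagonist, differed by 1.73, but by its median the list lay closer to all probe sets than the M1-like markers did.

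M2-like markers did not move together. Of 25 measured, 12 were above 0 in the weak level with a median of −0.01, and 0 were called. The chitinase-like Chil3 was at 4.39 and 4.60 against 5.81 and 6.11 and the lectin Cd209a at 4.37 and 3.15 against 2.44 and 2.68, both dim. Type I interferon-stimulated genes lay the other way from NF-κB genes. Of 33, 30 were below 0 in the weak level, with a median of −0.39 and 0 called. In the strong level 12 were below 0, with a median of 0.10. Without LPS, HMB minus Ctrl was below 0 for 28 in numbers 5 and 6 (median −0.37) and for 29 in numbers 1 to 4 (median −0.18). Oas3, an antiviral 2′-5′-oligoadenylate synthetase, was at 13 or more on both LPS arrays and at 12.39 and 12.05 with HMB+LPS. Irf7, the regulator of interferon genes, differed from this at 15.90 and 16.08 against 16.65 and 16.53.

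None of the members of the metabolic lists passed in the weak level. Of 29 glycolysis and hypoxia genes, 25 were above 0 in the weak level with a median of 0.60. Ddit4, a hypoxia-induced inhibitor of mTORC1, was at 6.68 and 7.54 against 8.89 and 10.04, and the prolyl hydroxylase Egln3 at 9.62 and 9.29 against 11.90 and 11.83. Both were above 13.6 on all 6 strong arrays. Acod1, which makes itaconate, was at 13.63 and 13.07 against 15.78 and 15.95, inside the 15.34 to 17.26 of the strong level, but none of 20 itaconate and TCA cycle genes passed and their median was −0.03. Of 30 oxidative phosphorylation genes the median was 0.24, with Ndufa1, a complex I subunit, at 11.01 and 11.04 against 12.65 and 12.66. Of 16 enzymes of leucine breakdown and HMB metabolism 0 passed and the median was 0.00, with the thiolase Acat1 at 12.37 and 12.78 against 11.68 and 11.51. Of 19 cholesterol synthesis genes 15 were below 0, with a median of −0.45.

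ATF4 targets, which respond to amino acid shortage and stress, were mostly lower with HMB+LPS in the weak level. Of 33 measured, 26 were below 0 with a median of −0.88, 12 were lower and 1 higher at an unadjusted p under 0.05 (against 4.8% and 4.34% of all probe sets), and Chac1 passed. The pseudokinase Trib3 was at 11.52 and 12.08 against 9.16 and 8.91, the asparagine synthetase Asns at 15.22 and 15.06 against 13.65 and 13.72, and the factor Atf5 at 10.68 and 11.26 against 9.77 and 9.42, with adjusted p of 0.199, 0.218 and 0.362. In M0 macrophages, HMB minus Ctrl in numbers 5 and 6 was −2.42 for Chac1, −3.48 for Trib3, −1.82 for Asns and −3.46 for Atf5, genes named after their values were seen. In numbers 1 to 4 it was 0.59, 0.55, 0.13 and −0.12. Over the 33 members the median was −1.07 in numbers 5 and 6, with 29 below 0, and −0.02 in numbers 1 to 4, with 17 below 0. In the strong level the list had a median of 0.12, and Trib3 was at 8.04 to 9.84 with LPS and 8.62 to 10.38 with HMB+LPS.

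No cell cycle gene passed. In the weak level all 48 measured mitosis genes were below 0 (median −0.80), as were 46 of 50 DNA replication genes (median −0.79). Of them 9 and 12 were lower at an unadjusted p under 0.05 (against 4.8% of all probe sets). In the strong level the lists had no common direction, with medians of 0.00 and 0.11. Only 2 of the 48 and 7 of the 50 were above the 95th percentile of the negative controls on 6 or more of the 10 arrays. That percentile was 10.68 to 11.75 on strong arrays, so most strong-level values were near background and could hide a difference. The apoptosis inhibitor and mitosis gene Birc5 was at 10.98 and 10.70 against 9.87 and 9.75 in the weak level, and at 7.86, 7.45 and 7.31 against 7.04, 6.60 and 5.69 in the strong level. Birc5, Aurka, a mitotic kinase, and E2f8, an E2F repressor, had differences of −1.07, −0.79 and −0.96 with the block, about equal in both levels. On the strong arrays each of these genes lay below that percentile. The mean level of the mitosis genes was 6.21 to 7.19 on strong and 10.38 to 11.36 on weak arrays.

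**Figure D5:**
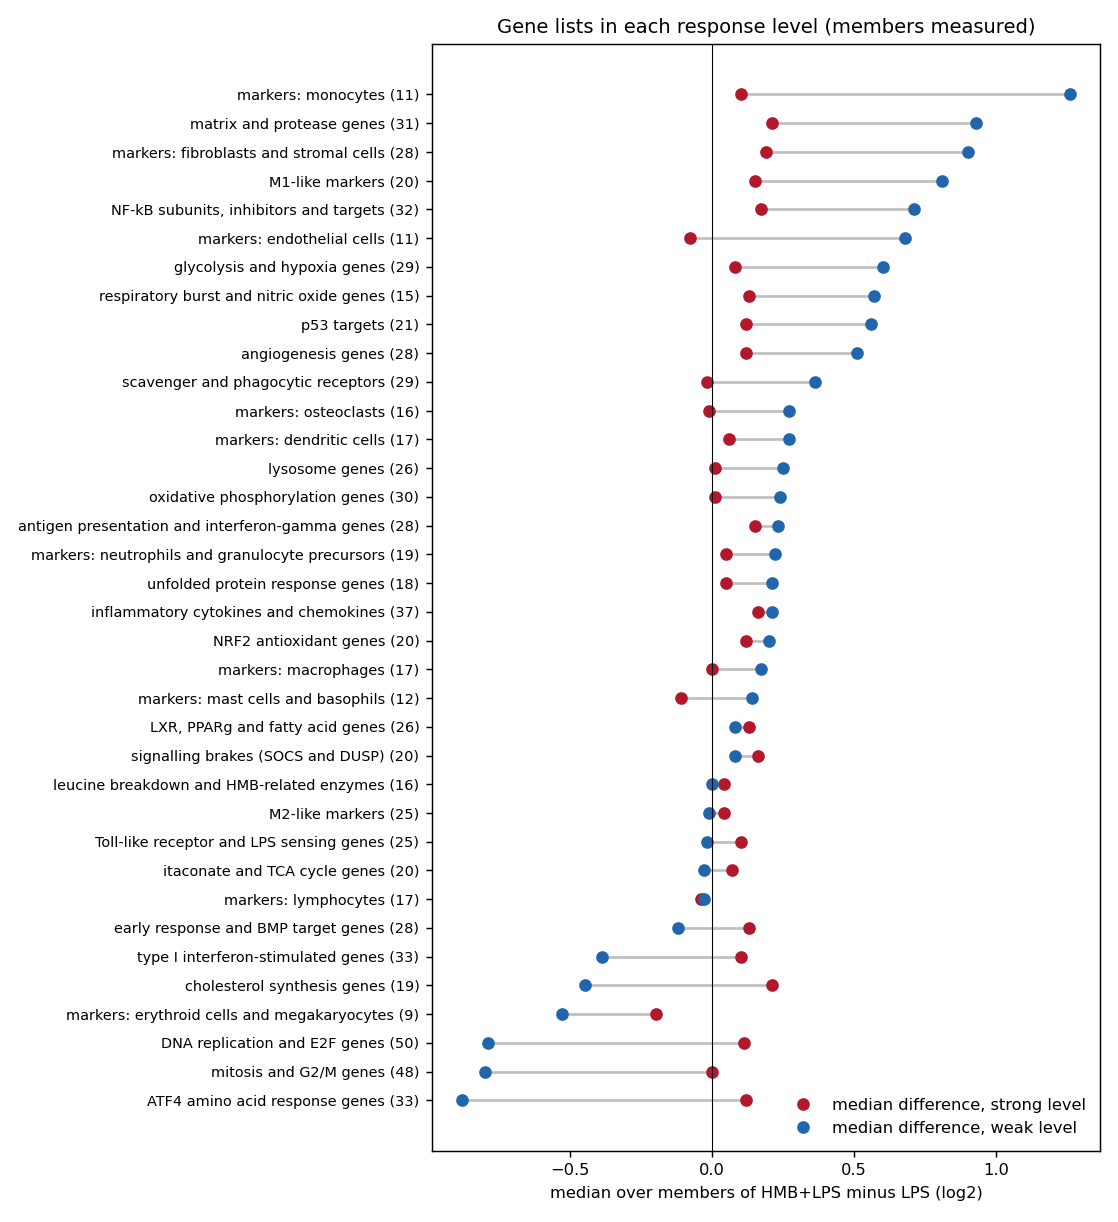
Median difference HMB+LPS minus LPS (log2, x axis) over the measured members of each gene list (rows, with the number of members) in the strong level (red) and in the weak level (blue). Medians in the strong level lie near 0, and in the weak level they run from −0.88 for ATF4 targets to 1.26 for monocyte markers.

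Of 31 matrix and protease genes, Mmp8 and Mmp2 rose in the weak level, 14 were higher and 1 lower at an unadjusted p under 0.05 (against 4.34% and 4.8% of all probe sets), and the median was 0.93. Of 28 fibroblast and stromal markers, none passed with the block, 11 were higher and 1 lower at an unadjusted p under 0.05 (against 2.38% and 2.28% of all probe sets), and the median was 0.29. In the weak level 0 were called, and 10 were higher and 0 lower at such a p (against 4.34% and 4.8%). There 22 were above 0 and the median was 0.90. Their mean level was 6.56 and 6.65 on the weak LPS arrays and 7.32 and 7.45 on the weak HMB+LPS arrays, while the strong arrays overlapped, at 6.78 to 7.17 and 6.91 to 7.23. Only 4 of the 28 were above the 95th percentile of the negative controls on 6 or more of the 10 arrays. The collagen Col1a1 was at 8.12 and 6.53 against 8.82 and 8.27, and the matrix protein Sparc at 10.03 and 9.68 against 10.75 and 11.12.

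Monocyte markers were at 7.11 and 7.15 on the weak LPS arrays and at 8.09 and 8.14 on the weak HMB+LPS arrays in mean level (11 members, 1 above the negative controls), and the proteoglycan Vcan among them at 6.74 and 6.03 against 8.39 and 8.58. Neutrophil markers had a mean of 5.17 and 5.46 against 5.93 and 5.94, with Mmp8 called and 2 of 19 above the negative controls, and the median difference was 0.22 with 8 members below 0. The calprotectin subunit S100a9, a member of this list, was at 3.83 to 5.01 with LPS and 4.41 to 6.65 with HMB+LPS, near background throughout. Its partner S100a8 was at 6.55 and 6.08 on the weak LPS arrays and at 9.24 or above on both weak HMB+LPS arrays (3.01, adjusted p = 0.362) and at up to 11.28 on the strong arrays. Lymphocyte, mast cell and erythroid markers had median weak-level differences of −0.03, 0.14 and −0.53. Osteoclast markers had a mean of 9.88 and 9.93 against 10.15 and 10.26, and endothelial markers of 5.50 and 5.73 against 6.13 and 6.17. The part of these cell types in the weak-level result was not tested, and in bulk RNA fewer cells of a type and less RNA per cell cannot be told apart.

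Whether the HMB difference with LPS differed from that in M0 macrophages was tested last. Over all 22 arrays limma called 0 probe sets, and 678 had an unadjusted p under 0.05 (3.05%). The smallest adjusted p was 0.0876, for Cd5l, a secreted scavenger protein of macrophages, and U90926. Between the weak level and the M0 arrays of numbers 5 and 6, a comparison added after the data were seen, 5 probe sets passed (0.0225% of those tested): Cd5l, U90926, F10, Sod2 and Clec4n, which encodes Dectin-2. The weak level and this M0 set were both chosen with results of these data known. LPS 3 has no M0 array of its number in that set. These calls are therefore a description. With LPS, Cd5l went from 11.58 and 12.11 to 9.30 and 8.75 as HMB was added, and without LPS from 10.84 and 11.02 to 13.09 and 12.91, so the HMB differences ran in opposite directions (−2.82 and 2.07). Clec4n likewise was at 15.58 and 15.63 against 16.99 and 17.26 with LPS, and at 15.47 and 15.48 against 12.61 and 12.37 without it (1.52 and −2.99). Of the 27 probe sets called in the weak level, 23 (85.2%, against 63.4% of all probe sets) had a difference of the same sign in the M0 arrays of numbers 5 and 6, and 10 (37%, against 3.45%) were over 1 in size. In numbers 1 to 4, 10 of the 27 (37%, against 50.5%) had the same sign and 0 were over 1 in size. Klra17 was at 3.17 in numbers 5 and 6 and 0.56 in numbers 1 to 4, Cst7 at 2.18 and 0.03, Saa3 at 2.02 and 0.51 and Arg2 at 1.63 and −0.60. Nos2, F10, U90926 and Sod2 were at 0.31, 0.33, 0.13 and −0.29 in numbers 5 and 6.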

How the data were processed

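The authors deposited log2 values per probe set, 1 column per array. The base of the log was taken from the values. The sources used here name no background correction, normalization or software. Of 28846 probe sets, 6640 controls were left out and 22206 tested, of which 19572 carried 1 gene symbol of the platform annotation and 2634 were unnamed. For 55 genes with several probe sets the one with the highest mean was used. Array medians ran from 5.73 to 6.01, and arrays have no read depth, so their number limits the precision. The labels assign 6 Ctrl, 6 HMB, 5 LPS and 5 HMB+LPS arrays, while the design text gives 5 of each.

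limma 3.58.1 in R 4.3.3 (lmFit, eBayes, two-sided) was fitted to the 10 arrays with LPS, with response level as a block, and as 4 means (2 groups in 2 levels) for differences within and between levels, and to all 22 arrays for the comparison with M0. P-values were Benjamini-Hochberg adjusted over 22206 probe sets (threshold 0.05), and errors are standard errors. The scripts were tested on simulated data. The members, levels and 37 gene lists (873 genes, 795 matched) were chosen with earlier results of these data known. Genes named were the 10 with the smallest p in each direction with 1 sign in both levels, 2 per list or the called ones, those with the smallest adjusted p for the differences between levels and from M0, Nos2, Arg1, Mrc1, Il6, Il1b, Tnf, Mki67 and Lcn2, and, chosen after their values were seen, all 27 called in the weak level and 14 others such as Trib3, Asns and Adgre1. Cd38 and Il12b were not matched. Alternatives were quantile normalization, leaving out dim probe sets, limma-trend, control separation as covariate, array weights, other sets of arrays, blocks by replicate number, and leaving out each array.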

Additional observations from a re-analysis of the deposited data

Results flagged for a closer look

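On 8 of 256 checks (128 genes in each of 2 groups of 5), 1 array stood farther from its group than Dixon's 95% limit allows. Chance gives about 1 in 20 where a group comes from 1 population. Each group here mixed strong and weak arrays, so that rate is no measure for this count. The gap was divided by the group's range. It was 0.776 for Btg4 on LPS 6, 0.744 for Psph, a serine synthesis enzyme, on LPS 5, 0.716 for the mast cell protease Prss34 on LPS 4, 0.859 for 1110017D15Rik on HMB+LPS 5, 0.755 for Cfb on HMB+LPS 2, and on HMB+LPS 4 0.75 for Slamf6, 0.721 for Ly6i and 0.844 for the calprotectin subunit S100a8.

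The HMB difference differed between levels by 4.24 for Nos2 and 3.72 for F10 (limma interaction). It differed between the weak level and the M0 arrays of numbers 5 and 6 by −4.89 for Cd5l (adjusted p = 0.00333), 4.50 for Clec4n (adjusted p = 0.0035), 5.72 for U90926 (adjusted p = 0.0107), 3.34 for F10 (adjusted p = 0.0133) and 2.42 for Sod2 (adjusted p = 0.0301), all from the limma fit over 22 arrays. Both comparisons used sets of arrays chosen from these data, so all these values are a description.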

How the results depend on the processing

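With the level as a block the count of 0 held under each alternative but 1: all 22 arrays in 8 means gave 16. In the strong level it was 0 under each. For the weak level (27) the count was 106 with dim probe sets left out (21 of the 27 among them), 84 with limma-trend, 66 with control separation as covariate, 686 with array weights and 107 with all 22 arrays in 8 means, and 0 in the weak arrays alone and without arrays of a control separation under 4, which leaves 1 strong array per group. Leaving out 1 array gave 0 to 18. For the difference between levels (2) the same settings gave 14, 16, 4, 12, 14 and, without arrays of low separation, 0, and leaving out 1 array gave 0 to 2. For the difference from M0 (0) quantile normalization gave 1, dim probe sets left out 4, limma-trend 3 and array weights 5, and leaving out 1 array gave 0 to 3. The causes were not tested. The filter for dim probe sets was applied over strong and weak arrays together. Probe sets dim on all weak arrays, such as Nos2, Arg2, U90926 and Tnfrsf9, could thus stay in through the strong arrays. Whether the weak-level calls hold without signals that are dim on the weak arrays was therefore not tested. Added after the data were seen were all 22 arrays for each level, and low separation left out for the weak level and the difference between levels. Over the planned settings the 27 calls were kept 214 times and lost 212 times, with 0 signs turned.

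Arrays of the same replicate number deviated together from their group means for numbers 2, 4 and 6 (r = 0.615, 0.545 and 0.599) and not for 3 and 5 (−0.515 and −0.516), whose arrays lie in different levels. With level means removed r was 0.358 and 0.525 for numbers 2 and 4 and between −0.041 and −0.007 for the others. LPS 2 and 4 correlated best with their own number and LPS 3, 5 and 6 did not. For numbers 3 and 5 r cannot decide on pairing, since their arrays lie in different levels. The numbers were not taken to pair the arrays, so the strong-level errors ignore the shared deviation of numbers 2 and 4. With the replicate block in place of the level 0 probe sets passed (579 at an unadjusted p under 0.05), with the replicate block and the level 0 (1531), and with the replicate block in the comparison with M0 0. The methods' t-test gave 652 at their threshold and 0 after adjustment.

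Of single genes with the block, the sign turned for Mcm5 with quantile normalization (0.02), Il6 with array weights (−0.12) and without arrays of low separation (−0.02), and Bckdhb there (−0.06). Leaving out 1 array also turned signs, with ranges of −0.28 to 0.39 for Arg1, −0.40 to 0.45 for Il6, −0.17 to 0.52 for Tnf, −0.30 to 0.40 for Col1a1, −0.19 to 0.12 for Csf1r and −0.48 to 0.17 for Mcm5. The 10 arrays and their signal over background limit what could be detected.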
